A study of Arabidopsis thaliana with 12 samples.

Results

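CCL (AT3G26740) is a nuclear gene of Arabidopsis thaliana, described here through the 1 array probe that carries its name, out of 3439 probes on the array and 689 loci with a probe of their own. The gene was chosen by its measured difference between the groups in these same samples, so its levels and differences are given as a description, and no test or p-value is attached to them. The 12 samples are total RNA of wild-type plants of the ecotype Columbia 0. The 6 control samples, titled 0h, came from plants kept in growth light of 80 µE. The 6 recovered samples, titled HLrec_2d, came from plants given 1 h of stress light at 1000 µE and then returned to 80 µE for 48 h. The labels name no organ, no plant age and no day length, and they do not state whether replicates were separate plants, so the spread between samples may be technical.

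CCL stands for CCR-like. The CCR genes of Arabidopsis encode glycine-rich RNA-binding proteins whose transcripts cycle over the day under the circadian clock, and the CCL transcript cycles as well. It is also one of the short-lived transcripts of Arabidopsis, and its decay rate is itself under clock control. The protein is the Arabidopsis counterpart of LIR1 of rice, a chloroplast protein that helps leaf-type ferredoxin-NADP reductase (FNR) to attach to the thylakoid membrane. FNR passes electrons from ferredoxin to NADP at the end of photosynthetic electron transport, so the gene links the clock, light and the electron acceptor side of photosystem I.

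The deposited intensity of CCL, a linear value whose maximum was 100 on 11 of the 12 arrays and 90.5 in recovered 4, was lower in the controls than after recovery. It was 3.15, 3.68, 2.68, 3.22, 1.31 and 1.74 in controls 1 to 6. It was 6.02, 7.38, 12.2, 10.8, 8.68 and 9.30 in recovered samples 1 to 6. The lowest recovered sample, number 1, lay above the highest control, number 2, so the groups did not overlap on the deposited scale. The group means were 2.63 ± 0.92 (SD, n = 6) for control and 9.07 ± 2.25 (n = 6) for recovered samples.

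The arrays were then quantile normalised and placed on a log2 scale. Controls 1 to 6 had log2 levels of 1.59, 1.76, 1.28, 1.54, 0.68 and 1.04. Recovered samples 1 to 6 had log2 levels of 2.74, 3.05, 3.60, 3.53, 3.12 and 3.20. Controls 5 and 6 were the lowest of their group and recovered 3 and 4 the highest of theirs, and a gap of 0.98 on the log2 scale separated the groups. The mean level rose from 1.32 ± 0.40 to 3.21 ± 0.32 (SD, n = 6 each), a difference of 1.89, or 3.71-fold.

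**Figure D1:**
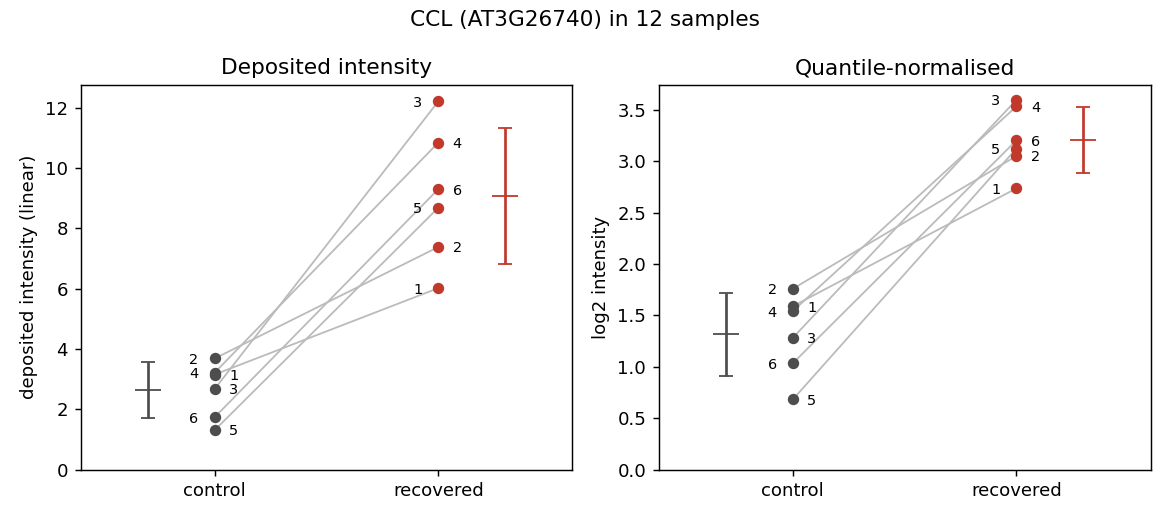
CCL in the 12 samples, as deposited intensity on a linear axis (left) and as quantile-normalised log2 intensity (right). Points are samples with their replicate numbers, grey lines join samples of the same number, and the bars beside the points are group means with SD (n = 6); all 6 lines rise, from 1.31 to 3.68 in control to 6.02 to 12.2 in recovered samples on the deposited scale.

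A rank within an array does not depend on how arrays are scaled to each other, so it was read from the deposited values alone. Counted from the brightest of the 3439 probes, CCL took rank 145, 127, 183, 151, 292 and 221 in controls 1 to 6. In recovered samples 1 to 6 it took rank 58, 47, 32, 34, 45 and 42. Every recovered sample thus placed CCL among the 58 brightest probes, and no control placed it above rank 127. The share of probes below CCL averaged 94.6% with an SD of 1.8 over the 6 controls and 98.7% with an SD of 0.28 over the 6 recovered samples. The brightness of a probe also depends on the probe itself, so this rank is a position of the signal and not an order of transcript amounts. Of 631 tested probes with 1 gene, 16 lay above CCL in mean log2 level in control and 5 in recovered samples. The nearest named probes in control, AT2G36480 above at 1.37 ± 0.85 and AT4G19900 below at 1.12 ± 1.15 (SD, n = 6), were within their spread of CCL. In recovered samples the antenna gene LHCB1.5 came next above at 4.19 ± 0.20 and did not overlap with CCL, whereas PSAN, a photosystem I subunit, came next below at 2.83 ± 0.49 and overlapped with it.

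**Figure D2:**
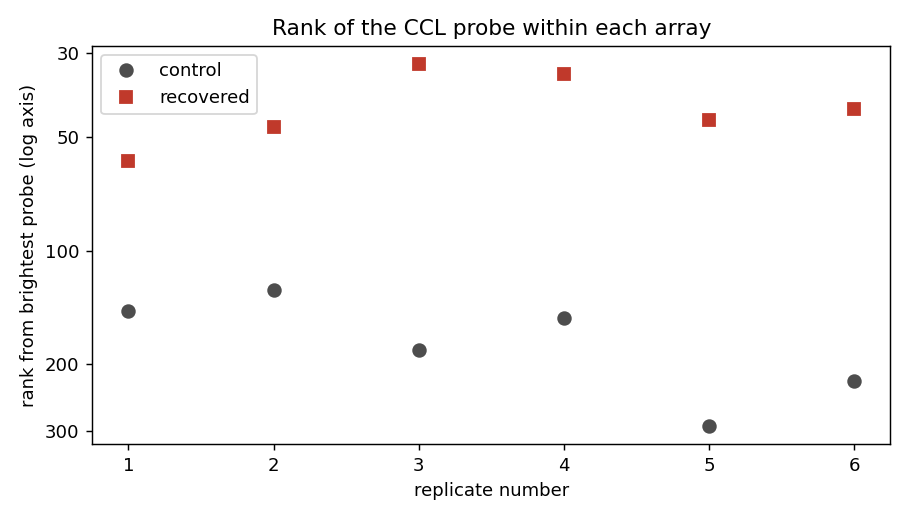
Rank of the CCL probe from the brightest of 3439 probes on each array, on a log axis with the brightest rank at the top, against replicate number. Controls (grey circles) lie at ranks 127 to 292 and recovered samples (red squares) at ranks 32 to 58.

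Same-number samples were then set against each other. The log2 difference, recovered minus control, was 1.15, 1.29, 2.31, 1.99, 2.44 and 2.17 for numbers 1 to 6, with a mean of 1.89 ± 0.54 (SD, n = 6 pairs). CCL was higher after recovery in 6 of 6 pairs. Over all 3177 tested probes, 8.66% were higher in 6 of 6 pairs, and 1.83% had groups that did not overlap with the recovered samples higher. Both counts belong to the contrast that picked the gene, so they place CCL among the probes and add no support.

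The size of the difference was smallest in numbers 1 and 2, while numbers 3 and 4 overlapped with numbers 5 and 6. Averaged over adjacent numbers, it was 1.22 for numbers 1 and 2, a 2.33-fold difference. It was 2.15 for numbers 3 and 4, or 4.45-fold, and 2.30 for numbers 5 and 6, or 4.94-fold. Controls 1 and 2 were the highest controls and recovered 1 and 2 the lowest recovered samples. Adjacent numbers of a group differed in CCL by 0.17 to 0.35 in control and by 0.06 to 0.32 in recovered samples on the log2 scale. Other samples of a group differed by 0.05 to 1.08 in control, with a median of 0.53, and by 0.07 to 0.86 in recovered samples, with a median of 0.44. In CCL alone, some other samples were thus as close as adjacent numbers. The arrays as a whole were closest between adjacent numbers, since each of the 12 samples had its adjacent number as its closest array. If adjacent numbers are repeat readings of 1 sample, the 6 differences are 3, with a mean of 1.89 ± 0.59 (SD, n = 3).

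Within a group CCL varied less than most tested probes and near the middle of probes of like brightness. Its SD of 0.40 in control was larger than that of 20.1% of the tested probes, and its SD of 0.32 in recovered samples was larger than that of 17.7%. The median SD of all tested probes was 0.72 in control and 0.65 in recovered samples. Among the 100 tested probes nearest to CCL in mean level, 46% had a smaller SD in control and 53% in recovered samples.

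The array median was higher after recovery in 4 of the 6 pairs, and the size of the CCL difference moves with how this is treated. The array median was 0.284, 0.271, 0.217, 0.212, 0.200 and 0.202 in controls 1 to 6. It was 0.458, 0.448, 0.197, 0.196, 0.426 and 0.428 in recovered samples 1 to 6. Recovered 3 and 4 therefore matched their controls, with a recovered over control ratio of medians of 0.909 and 0.923, while the other 4 ratios lay between 1.61 and 2.14. The 95th percentile, near which CCL lies in the controls, moved far less, from 2.50 ± 0.32 to 2.61 ± 0.18 (SD, n = 6).

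In numbers 3 and 4, where the array medians were alike, the deposited intensity of CCL was 4.56-fold and 3.37-fold higher after recovery. There CCL lay 12.3-fold and 15.2-fold above the array median in control and 61.8-fold and 55.4-fold above it in recovered samples. In numbers 1 and 2 the deposited intensity was on average 1.95-fold higher. Relative to the array median, however, CCL went only from 11.1-fold to 13.1-fold in number 1 and from 13.6-fold to 16.5-fold in number 2. Numbers 5 and 6 went from 6.57-fold to 20.4-fold and from 8.60-fold to 21.7-fold above the median.

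The difference was therefore set out under 5 scalings. The mean difference was 1.89 with quantile normalisation, 1.84 with the deposited scaling kept, 1.80 with cyclic loess and 1.77 with each array divided by its 95th percentile. With array medians aligned it was 1.28 ± 0.85 (SD, n = 6 pairs). In that scaling the pairs ran from 0.24 in number 1 to 2.33 in number 3, and the groups overlapped, with recovered 1 at 1.86 below control 4 at 2.07. All 6 pairs stayed above 0 in each of the 5 scalings. Numbers 1 and 2 gave the smallest differences in each of them, and numbers 3 and 4 kept a mean of 1.86 to 2.15 throughout. The median difference of all tested probes was 0.47 with the deposited scaling kept and 0.41 with the 95th percentile. It was 0.004 with quantile normalisation, -0.02 with cyclic loess and -0.07 with array medians aligned. Under the deposited and 95th percentile scalings, the median tested probe thus rose as well. CCL lies far above the median probe in level, and whether this shift reaches probes of its level in these scalings was not tested.

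**Figure D3:**
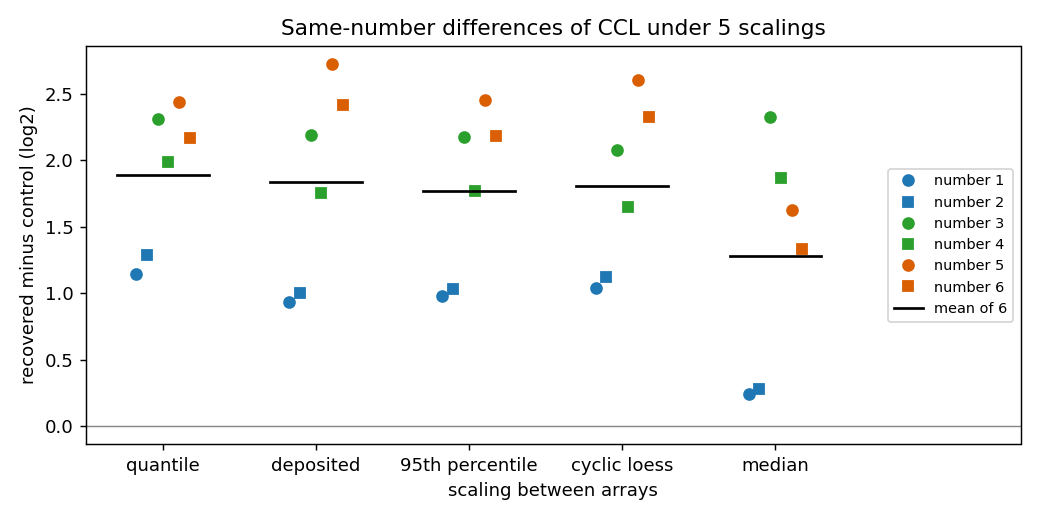
Log2 difference of CCL between recovered and control samples of the same replicate number, under 5 ways of scaling arrays to each other. Colours mark adjacent numbers and black lines the mean of the 6 pairs; numbers 1 and 2 lie lowest under each scaling and come down to 0.24 and 0.28 when array medians are aligned.

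Among the 3177 tested probes, CCL had the 17th largest difference upward and the 33rd largest in either direction. Among the 631 tested probes with 1 gene these ranks were 3 and 5. The middle 95% of all tested probes had differences between -1.34 and 1.38, and the median absolute difference was 0.44. The 100 tested probes nearest to CCL in mean level had a median difference of 0.06, so relative to probes of like brightness the difference of CCL was 1.83. Within those probes and CCL itself, CCL ranked 5 from the top. Its place among all probes was less settled than its size: it was 104 with the deposited scaling kept, 105 with the 95th percentile and 130 with array medians aligned.

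**Figure D4:**
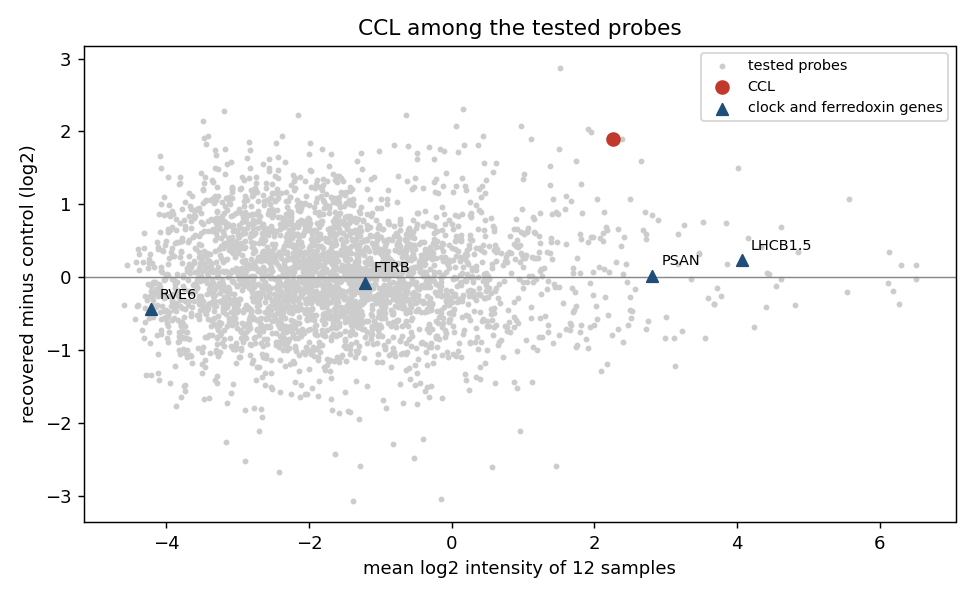
Log2 difference, recovered minus control, against mean log2 intensity of the 12 samples for the 3177 tested probes (grey). CCL (red) lies at 1.89, above nearly all probes of its brightness, while the 4 measured genes of the clock, clock output and ferredoxin lists (blue triangles) lie between -0.44 and 0.23.

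The labels give no clock time of harvest. If the controls were taken when the stress began, the recovered plants were taken 49 h later, which is 1 h later in the day after whole days of 24 h. Neither that order nor an unstressed control kept for the same time is in the labels. For a transcript that cycles, the light stress, plant age and time of harvest cannot be told apart in this comparison.

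Other clock genes would show the time of day, but few had a probe of their own. Of 26 core clock genes 1 was measured, of 29 clock output genes 1, and of 23 genes listed for the ferredoxin and FNR system 2. No gene on the short lists for mRNA decay, dark-induced genes, light stress or other plant tissues had a probe of its own, and 2 listed genes were only on probes shared with other genes. Of the 4 measured genes, 0 passed the limma test over all probes and 0 had an unadjusted p under 0.05, against 18.3% of all tested probes. Over all probes limma called 2.17%, made up of 0.881% of the tested probes higher and 1.29% lower. This fit takes the 12 samples as independent, and the SE and adjusted p of the listed genes below rest on it. With adjacent numbers as a random block its 69 calls became 1. With adjacent numbers averaged, and so fewer samples, they became 0.

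RVE6, a MYB-like transcription factor related to the clock activator RVE8, was the core clock gene on the array. Its log2 level was -4.15, -4.95, -4.14, -3.49, -2.30 and -4.95 in controls 1 to 6. It was -4.95, -4.95, -4.70, -4.95, -3.17 and -3.88 in recovered samples 1 to 6. The groups overlapped widely, and 5 of the 12 values lay at the floor of -4.95, so the probe was close to its lower limit of measurement. The difference of -0.44 (SE 0.48, adjusted p = 0.666 by limma) was 0.45 with the deposited scaling kept, so it has no settled sign.

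LHCB1.5 (AT2G34420) encodes an antenna protein of photosystem II from a clock-regulated family with near-identical members, which the probe may not tell apart. Its log2 level ran from 3.60 to 4.14 with a median of 4.05 in control, and from 3.94 to 4.46 with a median of 4.14 in recovered samples. The groups overlapped, with a difference of 0.23 (SE 0.21, adjusted p = 0.582 by limma). It was higher in 4 of 6 pairs, against 6 of 6 for CCL, and its difference was -0.53 with array medians aligned.

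PSAN was on the list for the ferredoxin and FNR system, though it is a photosystem I subunit on the lumenal side and not a ferredoxin or FNR gene. It was at 2.80 ± 0.38 in control and 2.83 ± 0.49 in recovered samples (SD, n = 6), a difference of 0.03 (SE 0.28, adjusted p = 0.973 by limma). FTRB, the catalytic subunit of ferredoxin-thioredoxin reductase, takes electrons from ferredoxin to thioredoxins. It was at -1.18 ± 0.23 and -1.26 ± 0.43 (SD, n = 6), a difference of -0.08 (SE 0.24, adjusted p = 0.896 by limma). With array medians aligned PSAN was at -0.63, and FTRB was at 0.40 with the deposited scaling kept, so neither sign is settled. FNR itself and its thylakoid anchors had no probe of their own and were not analysed here.

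Genes with a pattern most like that of CCL were found by the root mean square difference between log2 levels centred on each gene's mean over the 12 samples. A gene with a flat profile would stand 1.00 from CCL, and the median over the 630 other tested probes with 1 gene was 1.27. The nearest was AT5G52810, which is SARD4, a reductase that makes pipecolic acid, at 0.513. AT1G35510, of the O-fucosyltransferase family, followed at 0.530, and AT3G13150, which encodes a pentatricopeptide repeat protein, at 0.552. AT2G27290 stood at 0.570, AT5G58330, the NADP-dependent malate dehydrogenase of the chloroplast, at 0.615, and AT2G39670 at 0.623. The next gene, AT3G26630, stood at 0.637. Among all tested probes, 3 without a single gene name were nearer than AT5G52810. The 12 values of a profile share their arrays and come in adjacent pairs. With the group means taken out, these 6 genes stood 0.398 to 0.580 from CCL, all farther than the 0.331 of a flat profile, so their likeness to CCL lay in the rise between the groups and not in the variation within them.

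The 6 genes departed from CCL in recovered 3 and 4. There CCL stood 1.34 and 1.27 above its own mean, its highest values. The other 6 genes lay between -0.06 and 0.68 from theirs, and in 4 of them these samples lay below recovered 1 and 2. Recovered 3 and 4 were also the recovered arrays with the lowest medians, at 0.197 and 0.196 against 0.426 to 0.458 in the others. Whether the array median bears on this departure was not tested. Averaged over adjacent numbers, the rise of AT5G52810 was nearly even, at 1.49, 1.35 and 1.29. Its single pairs were less even, from -0.51 to 0.21 around its mean in number 5 and from -1.12 to 0.74 in number 6. The rise of AT1G35510 was smallest in numbers 1 and 2, at 0.75 against 1.55 and 1.76. That of AT2G27290 was smallest there too, at 0.30 against 1.53 in numbers 5 and 6. AT2G27290 was among the 17 brightest probes on every array, so its recovered values lay near the top of the scale. AT5G58330 rose most in numbers 5 and 6, by 3.18 on the log2 scale, and AT2G39670 likewise, by 2.53.

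**Figure D5:**
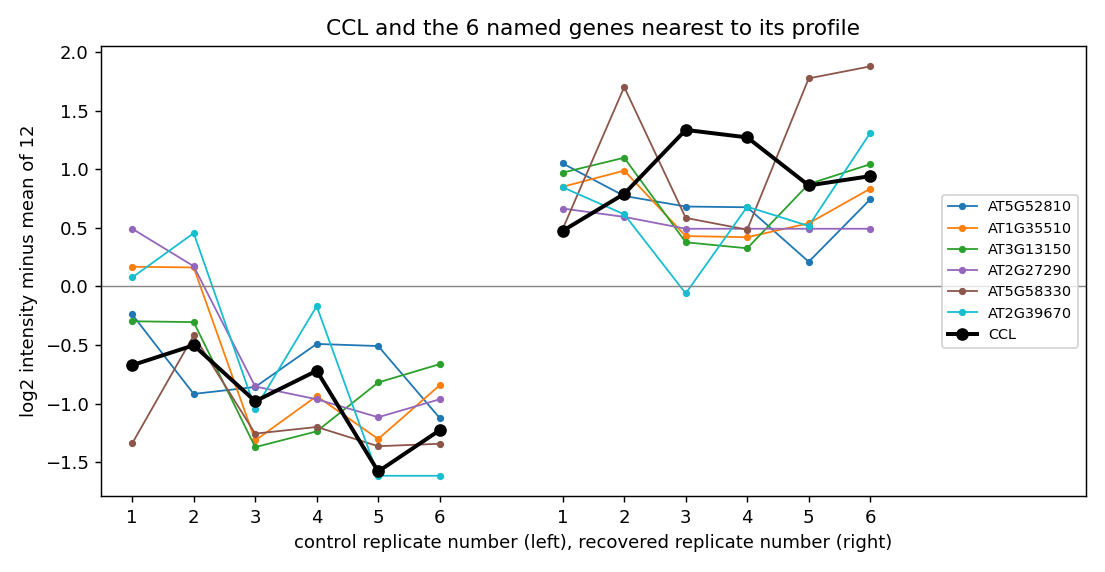
Log2 intensity centred on the mean of the 12 samples for CCL (black) and the 6 named genes nearest to it, in controls (left) and recovered samples (right). Lines only join the samples of a gene; CCL is the highest of the 7 genes in recovered 3 and 4, at 1.34 and 1.27.

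Other genes were nearest to CCL in the variation within groups alone. NdhS, the subunit of the chloroplast NADH dehydrogenase-like complex that binds ferredoxin, was nearest to CCL at 0.231, followed by FTRB at 0.262 and AT4G16410 at 0.264. These distances are only a little shorter than the 0.331 of a flat profile. The differences of these genes between the groups were 0.18, -0.08 and -0.23, against 1.89 for CCL, and NdhS was higher in 3 of 6 pairs.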

How the data were processed

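The deposited values are intensity values on a linear scale, 1 per probe and sample. The authors' background correction and scaling are not given in the sources used here. They are never negative, and the maximum was 100 in 11 of 12 samples. The sum per sample ran from 2874 to 3406. The number of unused sample columns was 0. Precision is limited by how many arrays there are.

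Arrays were quantile normalised, raised to a floor of 0.0322 (percentile 5 of positive values) and put on a log2 scale. Testing required 6 or more deposited values above the floor, met by 3177 of 3439 probes. Groups came from the sample titles. The two-sided, unpaired test was that of limma 3.58.1 (eBayes after lmFit, R 4.3.3), adjusted over all tested probes by Benjamini-Hochberg at 0.05. On simulated data for 3177 probes with 6 independent samples per group, limma called 66.6% of 4-fold changes and 22.1% of 2-fold changes. Adjacent numbers were alike in the real arrays, which the simulation left out, so these shares may not hold for them.

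Names came from a table of the platform's annotation, which gave 1 gene for 692 probes, several for 870 and none for 1877, matched to RefSeq genes of TAIR10.1. No coordinates or sequences are printed, since the build of the array and the probe sequences are not given in the sources used here. The gene, the lists and the naming rule were chosen with earlier results of these data known. Named were CCL, the listed genes with a probe of their own, the 6 and 3 genes nearest to it by each measure of likeness, and its neighbours in level.

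Same-number samples deviated together, with a correlation of 0.111 to 0.487 over tested probes for the 6 pairs, which was read as pairing. The correlation was weak, at 0.111 each, for numbers 3 and 4. CCL itself did not follow this throughout, since its highest controls shared their numbers with its lowest recovered samples. Its 6 pairs are therefore same-number differences and were not shown to be true pairs for this gene. No label names what same-number samples share. Alternatives were other scalings, floors and filters, array weights, blocks and samples left out.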

Additional observations from a re-analysis of the deposited data

Results flagged for a closer look

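In 26 groups of 6 values for CCL, the listed genes and the genes most like CCL, 1 sample stood apart, with most of its group's range lying between it and the next sample. Chance would give about 1.3 such cases for independent values, but adjacent numbers were alike, so this count may not apply here. AT5G58330, the malate dehydrogenase gene, was at a log2 level of -0.25 in control 2 and at -1.04 in the next control. No such sample was found for CCL in either group.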

How the results depend on the processing

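CCL was higher after recovery in every pair under each setting in which pairs were counted. Most of these settings reuse the same CCL values, and only the other scalings could change the sign of a pair. The gene was also chosen by this contrast, so the pair count adds no support. Its difference of 1.89 was 1.28 with array medians aligned and ran from 1.77 to 1.99 with 1 sample left out. With both samples of adjacent numbers left out it was 2.23 (1 and 2), 1.76 (3 and 4) and 1.69 (5 and 6). The replicate block leaves it at 1.89 by arithmetic, since each number occurs in both groups, so this is no check. Its mean percentile ran from 94.2 to 95.2 in control and from 98.7 to 98.8 in recovered samples with 1 sample left out. Its rank of 17 became 104 with the deposited scaling kept, 105 with the 95th percentile, 130 with medians aligned, 11 with the floor at the 20th percentile and 69 at the 1st. It was 54 without numbers 3 and 4, 77 without 5 and 6, and 8 (without control 4) to 35 (without control 5) with 1 sample left out.

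The 69 calls (28 higher, 41 lower) became 35 (29 and 6) with the deposited scaling kept, 24 (17 and 7) with the 95th percentile, and 68 (15 and 53) with medians aligned. They became 121 with the floor at the 20th percentile, 239 with array weights, 13 at an adjusted p under 0.01, 85 with the replicate block and 1 with adjacent numbers as a random block. Averaging adjacent numbers, with fewer samples, gave 0 by limma. Leaving out numbers 1 and 2 gave 15, numbers 3 and 4 gave 331, and numbers 5 and 6 gave 2, and 1 sample left out gave 21 to 68. The cause was not tested. Of the listed genes 0 were called in any setting, the replicate block included. The 95th percentile scaling and the comparison with probes of like level were chosen after seeing the data.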

Other observations

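In the RefSeq gene order no gene overlaps CCL, and of the 10 loci on each side of it 1 had a probe of its own. That gene, AT3G26730, lies next to CCL. It was at a log2 level of -4.19 ± 0.66 in control and -2.44 ± 1.58 in recovered samples (SD, n = 6), with 3 of 12 values at the floor. It was higher in 5 of 6 pairs, and its difference of 1.75 (SE 0.64) did not pass over all probes (limma adjusted p = 0.160).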
